A study of Mus musculus with 22 samples.

Results

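Axin2, Lef1, Sp5, Sp8, Nkd1, Notum, Apcdd1, Dkk1, Sfrp1 and Sfrp5 are 10 mouse genes of the canonical Wnt pathway, known as its targets, its antagonists or both. They were taken by gene symbol, and all 10 were found, each as 1 row, among the 55055 genes present in every table. RNA-seq was carried out on mouse embryonic stem (mES) cells that were wild type (wt) or carried the genotype Hox-/-, which is given as lacking all Hox function, and on 3 kinds of culture made from them. The 10 groups held 22 libraries. For mES cells there were 2 libraries of each genotype, and the cells grew with 100 ng/ml LIF, 3 µM CHIR99021, which inhibits GSK-3, and 1 µM of an inhibitor of MEK. Wild-type and Hox-/- endoderm cultures (3 libraries each) were grown flat from about 50000 seeded cells, received 100 ng/ml Activin A and 3 µM CHIR99021 at 24 h and again at 72 h, and were collected at 120 h. Gastruloids are stem cell aggregates grown as a model of the embryonic trunk. They were of the type labelled Activin A in both genotypes, and of the type labelled Chiron in wild type alone, each at 96 h and at 120 h (2 libraries per group). Gastruloid doses are not given in the labels. CHIR99021 itself raises Wnt signalling, and the mES cells and endoderm cultures of both genotypes received it. The label Chiron may name the same inhibitor, but no dose of it is given for gastruloids of either type. Its part in the differences between Chiron and Activin A gastruloids was not tested. All differentiated cultures are labelled as mixed cells, and neither the clones nor the cultures behind the Hox-/- libraries are counted in the labels. Effects of the genotype and of the cell line therefore cannot be told apart.

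In the canonical pathway a Wnt ligand binds Frizzled and Lrp receptors, the complex that marks beta-catenin for destruction is held back, and beta-catenin enters the nucleus to work with TCF and LEF factors. Many of the genes it switches on feed back on the pathway. Axin2 is a scaffold of the destruction complex, Nkd1 acts on Dishevelled inside the cell, Notum is a secreted enzyme that removes the lipid from Wnt ligands, Apcdd1 is a membrane protein that blocks Wnt signalling, and Dkk1 is a secreted protein that binds Lrp receptors. Lef1 is a DNA-binding partner of beta-catenin, and Sp5 and Sp8 are zinc-finger factors downstream of Wnt in the tail end of the embryo. Sfrp1 and Sfrp5 are secreted proteins that resemble the ligand-binding part of Frizzled, and Sfrp5 is known from the foregut endoderm. In the gastrula, Wnt signalling is high at the posterior end and is held down by antagonists at the anterior end.

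Total counts ran from 9108085 to 28819301 per library, and the gastruloid libraries were deeper at 96 h than at 120 h. Levels are given as CPM, the count divided by the total of the library and multiplied by 1000000, and 3 counts, taken as the lowest level that can be told from 0, were 0.104 to 0.329 CPM. The 39 Hox genes summed to 30.4 to 35.7 CPM in wild-type mES cells and 0.448 to 1.34 CPM in Hox-/- mES cells, and to 828 to 877 and 22.5 to 28.6 CPM in the endoderm cultures. Activin A gastruloids held 625 to 660.5 CPM of Hox transcripts in wild type and 102 to 104 CPM in Hox-/- at 96 h, and 1167 to 1190.3 and 63.8 to 69.5 CPM at 120 h, so the genotypes were apart in every culture. The pluripotency factor Pou5f1 was at 1216 to 1308 CPM in all mES libraries. The endoderm factor Sox17 was at 23.9 to 25.5 CPM in wild-type endoderm cultures and 3.64 to 5.92 CPM in Hox-/- ones, so the name endoderm is used here as the label of a culture. A gene is called where edgeR's quasi-likelihood test, adjusted over all genes tested (Benjamini-Hochberg), gave a p under 0.05, and "rose", "fell", "higher" and "lower" are used of called genes. Replicates are not said to come from separate cultures, so p-values measure the spread between these libraries, which may be technical.

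TCF and LEF factors bind a short motif, searched here as CTTTGNN in which each N is A or T. Its 4 forms were looked for on both strands in the 250 bases before each start of a gene in the RefSeq annotation (GRCm38.p6). Windows of 7 of the 10 genes were searched. Notum and Sfrp1 had no window in the set used, and Apcdd1 was left out of the search. Sp5 and Dkk1 each held 2 matches, whereas 1.43% of all 32851 windows held at least 2 and 14.8% held at least 1. Lef1 held 1 match in 1 of its 4 windows and Sp8 held 1 match in 1 of its 3 windows. Both windows begin, at 131156044 and 118846983, inside the Lef1 and Sp8 models that the counts follow, which start at 131110471 and 118846329. These matches therefore do not lie before those models. No match to these letters lay in the windows of Axin2, Nkd1 and Sfrp5, which does not bear on sites elsewhere. The levels of the target genes Sp5 and Axin2 behave differently in the gastruloids described below, and whether matches bear on this was not tested. Their windows are shown as a window with matches and one without. Both are written 5′ to 3′ on the strand of the gene, end at the base before its start, and have the matches in capitals, with the motif of the first match in Sp5 lying on the other strand.
Sp5, chr2:70474673-70474922, plus strand: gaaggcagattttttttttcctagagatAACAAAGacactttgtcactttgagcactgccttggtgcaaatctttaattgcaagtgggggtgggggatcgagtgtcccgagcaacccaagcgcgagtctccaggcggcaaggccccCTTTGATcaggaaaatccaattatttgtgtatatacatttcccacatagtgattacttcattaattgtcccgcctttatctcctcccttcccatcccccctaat
Axin2, chr11:108920099-108920348, plus strand: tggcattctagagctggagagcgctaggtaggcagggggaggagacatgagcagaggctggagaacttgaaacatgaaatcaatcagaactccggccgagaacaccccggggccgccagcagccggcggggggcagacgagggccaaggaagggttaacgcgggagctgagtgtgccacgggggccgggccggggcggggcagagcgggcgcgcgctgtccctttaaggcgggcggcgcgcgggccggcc
In Sp5 the matches lie at positions -222 to -216 and -104 to -98 from the start. In Dkk1 they lie at -117 to -111 and -98 to -92 from the RefSeq start, which is inside the Dkk1 model of the annotation that the count tables follow.

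Levels of different genes can be compared only per length, and the authors' deposited FPKM values (fragments per kilobase, scaled by depth) were used for that alone, as a description. In wild-type mES cells the group means were highest for Sfrp1 (42.5 FPKM), Notum (35.2 FPKM) and Axin2 (15.9 FPKM), and under 1 FPKM for Lef1, Sp8, Nkd1, Dkk1 and Sfrp5. Hox-/- endoderm cultures were led by Nkd1 (106 FPKM), Apcdd1 (61.7 FPKM) and Axin2 (57.6 FPKM). Lef1 led both the Chiron gastruloids at 96 h (124 FPKM) and the Hox-/- Activin A gastruloids at 120 h (118 FPKM). In wild-type Activin A gastruloids the leader was Sp5 at 96 h (65.2 FPKM) and Sfrp1 at 120 h (32.2 FPKM).

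**Figure D1:**
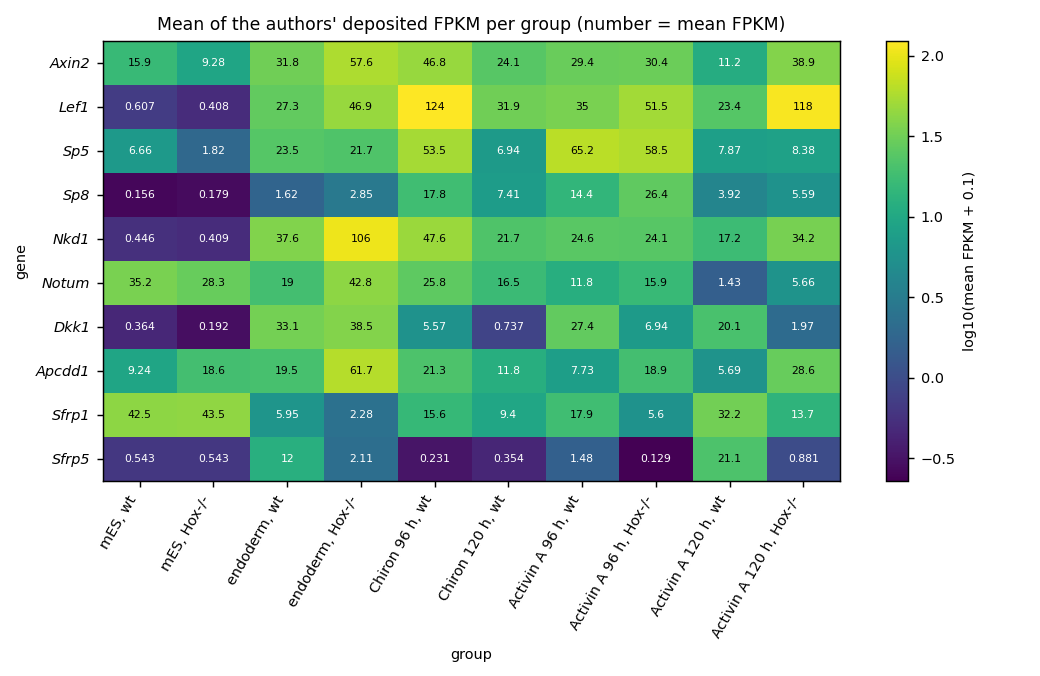
Mean of the authors' deposited FPKM values for each of the 10 genes (rows) in each of the 10 groups (columns), with colour on a log10 scale and the mean FPKM written in each cell. The brightest cells are those of Lef1 in Chiron gastruloids at 96 h (124 FPKM) and in Hox-/- Activin A gastruloids at 120 h (118 FPKM), followed by Nkd1 in Hox-/- endoderm (106 FPKM), and mES cells hold little Lef1, Sp8, Nkd1, Dkk1 or Sfrp5.

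Hox-/- was compared with wild type in 4 settings. In all 3 differentiated ones Axin2, Lef1, Sp8, Notum and Apcdd1 were higher in Hox-/-, and the Frizzled-related genes Sfrp1 and Sfrp5 were lower. In endoderm cultures 7 of the 10 genes were higher in Hox-/- (Axin2, Lef1, Sp8, Nkd1, Notum, Apcdd1 and Dkk1), 2 were lower (Sfrp1 and Sfrp5) and Sp5 was not called. Of all 14975 genes tested there, 46.2% were called, 23.1% higher and 23.1% lower. In Activin A gastruloids at 96 h, 5 were higher (Axin2, Lef1, Sp8, Notum and Apcdd1) and 3 lower (Dkk1, Sfrp1 and Sfrp5), against 38.9% of 16831 genes called, 22.2% higher and 16.7% lower. At 120 h, 6 were higher (the same 5 and Nkd1) and the same 3 lower, against 50.4% called, 24.9% higher and 25.5% lower. With scaling by total counts alone, the genes called over the whole table split into 2752 higher and 3716 lower at 96 h, in place of 3729 and 2817, and into 2955 and 5596 at 120 h, in place of 4196 and 4294. In mES cells 1 of 9 tested genes was higher (Apcdd1) and 3 lower (Axin2, Sp5 and Notum), with 23.2% of 13631 genes called, 12.4% higher and 10.8% lower, and Dkk1 was below the filter on low counts. The median size of the log2 fold change over the tested members was 0.33 in mES cells, 1.05 in endoderm, 0.79 at 96 h and 1.92 at 120 h, beside 0.15, 0.22, 0.20 and 0.32 over all genes tested. The signed medians of the members were -0.30, 0.84, 0.13 and 0.77, beside 0.00, 0.00, 0.03 and -0.02 over all genes. Since the members were chosen with earlier results of these data known, these medians are a description and not a test. In these bulk libraries fewer cells of a type and less RNA per cell cannot be told apart.

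**Figure D2:**
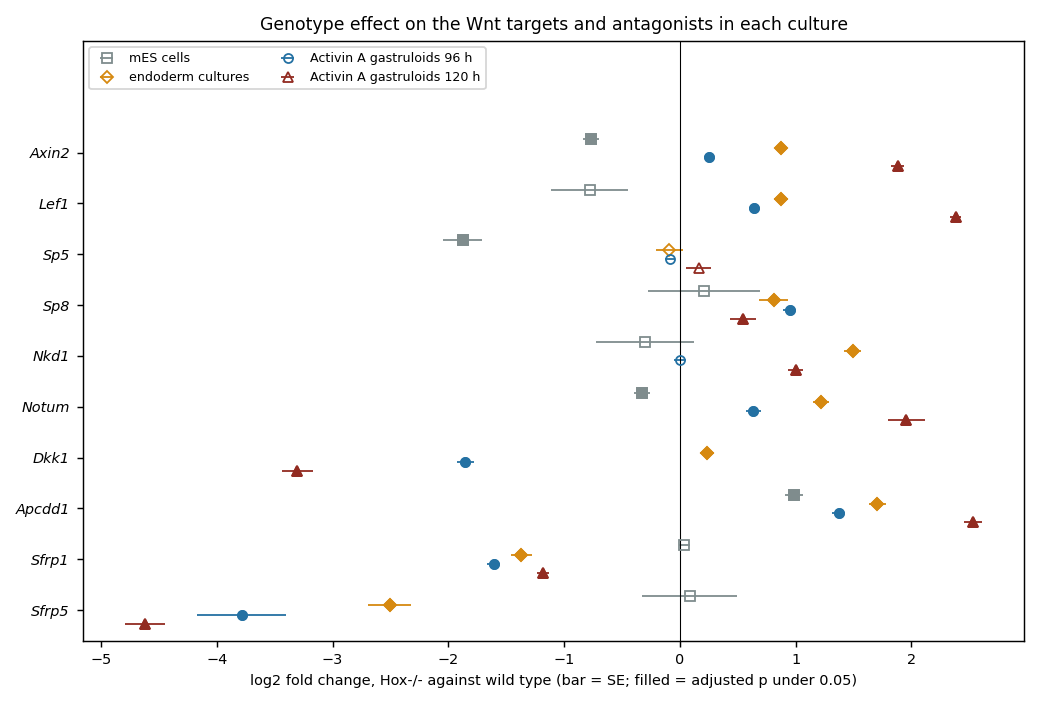
Log2 fold change of Hox-/- against wild type (x axis) for each gene (rows) in mES cells, endoderm cultures and Activin A gastruloids at 96 h and 120 h, with bars for the standard error and filled symbols for an adjusted p under 0.05. Apcdd1 lies to the right in all 4 settings (log2 fold changes 0.99 to 2.53), and Sfrp1 and Sfrp5 lie to the left in the 3 differentiated settings.

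Axin2 (ENSMUSG00000000142), on chromosome 11 (108920349 to 108950783, plus strand, mm10), is the destruction complex scaffold most used as a readout of Wnt activity. It was lower in Hox-/- mES cells and higher in Hox-/- cells after differentiation. Wild-type mES libraries held 67.5 and 66.1 CPM and Hox-/- ones 40.9 and 37.8 CPM (log2 fold change -0.76 with SE 0.07 and adjusted p 1.0e-10). Wild-type endoderm cultures held 140.5, 135 and 153 CPM and Hox-/- ones 269, 257 and 254 CPM (log2 fold change 0.87 with SE 0.06 and adjusted p 1.7e-08). The genotypes did not overlap in either setting, and the 2 effects differed by 1.66 (SE 0.09, adjusted p 1.2e-10) on the log2 scale. Activin A gastruloids at 96 h held 132 and 124 CPM in wild type against 144 and 149.5 CPM in Hox-/- (log2 fold change 0.25 with SE 0.04 and adjusted p 2.8e-06), a difference of 1.15 times. By 120 h wild-type gastruloids held 50.05 and 50.6 CPM and Hox-/- ones 173 and 170.0 CPM (log2 fold change 1.88 with SE 0.06 and adjusted p 3.9e-32). The ratio of the mean CPM was then 3.41. Chiron gastruloids were at 218 and 217 CPM at 96 h and 105 and 112 CPM at 120 h, above wild-type Activin A gastruloids at both times. Over the 10 groups Hox-/- endoderm was highest and Hox-/- mES lowest, and the only neighbours in that order whose libraries overlapped were Hox-/- Activin A gastruloids at 96 h and wild-type endoderm. Reads of Axin2 could include those of the opposite-strand gene Gm11670, whose own level was at most 0.162 CPM.

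**Figure D3:**
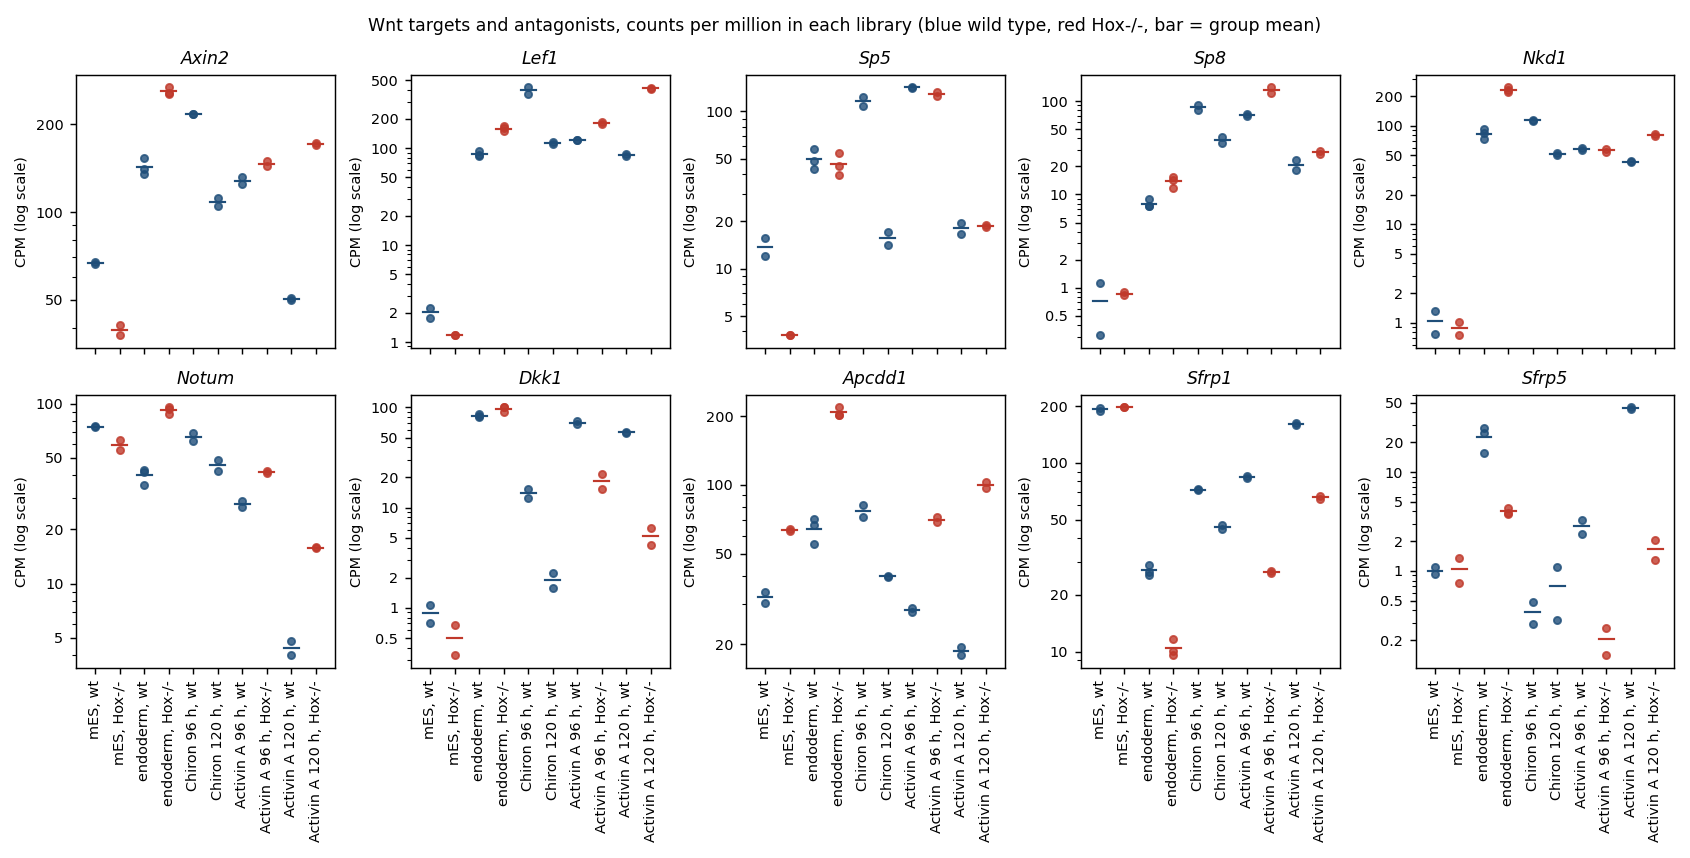
CPM of each gene in each of the 22 libraries (points, log scale), with a bar for the group mean, wild type in blue and Hox-/- in red. For Axin2 the red points lie below the blue ones in mES cells and above them in endoderm and in both Activin A gastruloid groups, and for Sfrp1 they lie below in the 3 differentiated settings.

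Lef1 (ENSMUSG00000027985), on chromosome 3 (131110471 to 131224356, plus strand), encodes a nuclear partner of beta-catenin, and was close to absent from mES cells. Wild-type mES libraries held 2.26 and 1.79 CPM and Hox-/- ones 1.195 and 1.18 CPM, a difference that was not called (log2 fold change -0.78 with SE 0.33 and adjusted p 0.087). Endoderm cultures rose to 85.6, 82.2 and 94.3 CPM in wild type against 167, 161 and 149 CPM in Hox-/- (log2 fold change 0.87 with SE 0.06 and adjusted p 5.1e-08 for genotype). The Activin A gastruloids held 122 and 123 CPM in wild type against 179 and 188 CPM in Hox-/- at 96 h (log2 fold change 0.64 with SE 0.04 and adjusted p 1.6e-18). Lef1 then moved apart between the genotypes. At 120 h wild type was at 87.9 and 83.4 CPM and Hox-/- at 415 and 412 CPM (log2 fold change 2.38 with SE 0.05 and adjusted p 5.8e-40). The mean CPM of Hox-/- was 4.82 times that of wild type. Chiron gastruloids started at 428 and 365 CPM at 96 h and were at 110.5 and 116 CPM at 120 h. The libraries of Chiron gastruloids at 96 h and Hox-/- Activin A gastruloids at 120 h overlapped at the top of the order. An opposite-strand gene of GENCODE M21, Gm43352, overlaps exons of Lef1, and its reads could not be separated if counting ignored strand. No row of that name was found among the genes present in every table, so its level is not given.

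Sp5 (ENSMUSG00000075304), on chromosome 2 (70474923 to 70477729, plus strand), is a zinc-finger factor that acts directly downstream of beta-catenin, and its upstream window with 2 matches is shown above. It was the one member not called between genotypes in any of the 3 differentiated settings. Wild-type mES libraries held 15.6 and 12.05 CPM and Hox-/- ones 3.81 and 3.78 CPM, which was a called fall (log2 fold change -1.88 with SE 0.17 and adjusted p 5.6e-11). Endoderm cultures held 48.2, 43.1 and 57.8 CPM in wild type against 54.2, 39.6 and 45.0 CPM in Hox-/-, and overlapped (log2 fold change -0.09 with SE 0.11 and adjusted p 0.54). In Activin A gastruloids at 96 h the values were 143 and 141 CPM in wild type against 125 and 133 CPM in Hox-/- (log2 fold change -0.09 with SE 0.04 and adjusted p 0.095), where scaling by total counts alone gave a called log2 fold change of -0.14 (adjusted p 0.0065), as did no filter on low counts and leaving out Hox-/- replicate 2 at 96 h. By 120 h they were 19.5 and 16.6 CPM in wild type against 18.4 and 19.0 CPM in Hox-/- (log2 fold change 0.16 with SE 0.11 and adjusted p 0.21). Chiron gastruloids held 107 and 124 CPM at 96 h and 14.2 and 17.2 CPM at 120 h. All 3 gastruloid series thus fell from above 100 CPM to below 20 CPM, and at 120 h the wild-type Activin A libraries overlapped with those of both other groups, which did not overlap each other.

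Sp8 (ENSMUSG00000048562), on chromosome 12 (118846329 to 118852576, plus strand), is a related zinc-finger factor known from the tail bud and limb ridge. It was at 1.13 and 0.311 CPM in wild-type mES cells and 0.896 and 0.840 CPM in Hox-/- ones, which overlapped (log2 fold change 0.21 with SE 0.49 and adjusted p 0.81). Endoderm cultures held 8.84, 7.45 and 7.59 CPM in wild type against 15.3, 11.8 and 14.3 CPM in Hox-/- (log2 fold change 0.81 with SE 0.12 and adjusted p 9.6e-05). Activin A gastruloids at 96 h held 72.0 and 69.1 CPM in wild type against 122 and 142 CPM in Hox-/- (log2 fold change 0.95 with SE 0.05 and adjusted p 9.3e-21). At 120 h the values were 23.3 and 18.3 CPM in wild type against 27.1 and 29.4 CPM in Hox-/- (log2 fold change 0.54 with SE 0.11 and adjusted p 3.9e-05). Unlike the targets above, Sp8 had its larger genotype effect at 96 h (difference between times -0.40, SE 0.12, adjusted p 0.0078), a call that was lost without wild-type replicate 1 at 120 h (-0.20, adjusted p 0.32) or Hox-/- replicate 1 at 120 h (-0.34, adjusted p 0.072). Chiron gastruloids held 79.8 and 91.4 CPM at 96 h and 35.2 and 40.8 CPM at 120 h.

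Nkd1 (ENSMUSG00000031661), on chromosome 8 (88521354 to 88594884, plus strand), encodes a protein that binds Dishevelled and dampens the signal inside the cell. In mES cells it was near the limit of detection, at 1.33 and 0.777 CPM in wild type against 0.747 and 1.01 CPM in Hox-/- (log2 fold change -0.30 with SE 0.43 and adjusted p 0.66). Wild-type endoderm cultures held 84.4, 73.3 and 91.5 CPM and Hox-/- cultures 247, 221 and 228 CPM, with no overlap and 2.79 times apart (log2 fold change 1.49 with SE 0.07 and adjusted p 1.2e-09). In Activin A gastruloids at 96 h the genotypes overlapped, at 59.4 and 57.1 CPM in wild type against 57.8 and 54.2 CPM in Hox-/- (log2 fold change 0.00 with SE 0.05 and adjusted p 0.98). At 120 h they did not, at 43.8 and 42.7 CPM in wild type against 81.6 and 78.6 CPM in Hox-/- (log2 fold change 1.00 with SE 0.07 and adjusted p 3.2e-18). The effect of genotype differed between the times by 1.00 (SE 0.08, adjusted p 5.7e-14). Chiron gastruloids held 113 and 113 CPM at 96 h and 50.5 and 52.8 CPM at 120 h.

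Notum (ENSMUSG00000042988), on chromosome 11 (120653788 to 120661175, minus strand), encodes the secreted enzyme that inactivates Wnt ligands. Unlike Lef1, Nkd1 and Dkk1, it was well expressed in mES cells, at 74.0 and 74.8 CPM in wild type against 62.9 and 55.6 CPM in Hox-/- (log2 fold change -0.33 with SE 0.07 and adjusted p 2.9e-04). The genotype effect had the other sign in endoderm cultures, at 41.8, 35.4 and 42.6 CPM in wild type against 95.7, 87.5 and 93.2 CPM in Hox-/- (log2 fold change 1.22 with SE 0.07 and adjusted p 7.9e-09), and the difference between the effects was 1.57 (SE 0.11, adjusted p 2.0e-09). Activin A gastruloids at 96 h held 26.8 and 28.8 CPM in wild type against 41.3 and 42.1 CPM in Hox-/- (log2 fold change 0.63 with SE 0.06 and adjusted p 1.5e-11). The lowest Notum levels of all groups were those of wild-type Activin A gastruloids at 120 h, 3.999 and 4.83 CPM, beside 15.9 and 15.8 CPM in Hox-/- (log2 fold change 1.96 with SE 0.16 and adjusted p 3.2e-15). Chiron gastruloids held 62.0 and 68.7 CPM at 96 h and 42.2 and 48.8 CPM at 120 h. Notumos and Myadml2os lie on the opposite strand over exons of Notum, and were at most 3.36 and 0.187 CPM, so reads shared with them are uncertain.

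Apcdd1 (ENSMUSG00000071847), on chromosome 18 (62922231 to 62961179, plus strand), encodes a membrane protein that binds Wnt ligands and Lrp receptors. It was the member that differed by genotype in the same direction in all 4 settings, undifferentiated mES cells included. The mES libraries held 30.3 and 34.0 CPM in wild type against 64.2 and 62.8 CPM in Hox-/- (log2 fold change 0.99 with SE 0.07 and adjusted p 5.9e-13). Endoderm libraries held 55.2, 66.4 and 70.8 CPM in wild type against 203, 219 and 203 CPM in Hox-/- (log2 fold change 1.71 with SE 0.07 and adjusted p 3.3e-10). Genotypes did not overlap in either, with ratios of the mean CPM of 1.98 and 3.25, and the log2 effects differed by 0.74 (SE 0.12, adjusted p 1.1e-04). Activin A gastruloids at 96 h held 27.6 and 28.8 CPM in wild type against 72.1 and 68.6 CPM in Hox-/- (log2 fold change 1.37 with SE 0.06 and adjusted p 5.1e-26). At 120 h the values were 19.6 and 17.9 CPM in wild type against 103 and 96.8 CPM in Hox-/- (log2 fold change 2.53 with SE 0.08 and adjusted p 6.3e-32), 5.34 times apart, the widest ratio toward Hox-/- among the members. Chiron gastruloids held 72.2 and 81.6 CPM at 96 h and 40.0 and 39.4 CPM at 120 h.

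Dkk1 (ENSMUSG00000024868), on chromosome 19 (30545863 to 30549665, minus strand), encodes a secreted blocker of Lrp receptors that is known from the anterior endoderm. Its genotype effect was small in endoderm cultures and large in Activin A gastruloids. In mES cells it was near the limit of detection, at 1.06 and 0.700 CPM in wild type against 0.672 and 0.336 CPM in Hox-/-. Endoderm cultures held 80.1, 82.6 and 85.1 CPM in wild type against 89.1, 100.3 and 101 CPM in Hox-/- (log2 fold change 0.23 with SE 0.06 and adjusted p 0.0046). The Hox-/- libraries of that culture were thus slightly higher, with no overlap. Activin A gastruloids at 96 h held 68.3 and 72.7 CPM in wild type against 21.4 and 15.3 CPM in Hox-/- (log2 fold change -1.85 with SE 0.08 and adjusted p 2.0e-26). At 120 h they held 56.1 and 57.0 CPM in wild type against 6.29 and 4.21 CPM in Hox-/- (log2 fold change -3.30 with SE 0.13 and adjusted p 4.9e-27), with wild type 10.8 times the Hox-/- level. Hox-/- Activin A gastruloids lay next to wild-type Chiron gastruloids in the order of levels at each time. Chiron libraries held 12.6 and 15.4 CPM at 96 h and 1.59 and 2.23 CPM at 120 h, and at 96 h they overlapped with the Hox-/- ones.

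Sfrp1 (ENSMUSG00000031548), on chromosome 8 (23411502 to 23449632, plus strand), encodes a secreted Frizzled-related protein. It had the highest FPKM of the members in mES cells of both genotypes. There it stood at 195 and 189.6 CPM in wild type against 198 and 197 CPM in Hox-/-, with no called difference (log2 fold change 0.04 with SE 0.05 and adjusted p 0.64). Endoderm cultures held 26.6, 29.0 and 25.6 CPM in wild type against 10.1, 11.6 and 9.57 CPM in Hox-/- (log2 fold change -1.37 with SE 0.09 and adjusted p 3.4e-08). Activin A gastruloids at 96 h held 82.8 and 85.0 CPM in wild type against 26.8 and 26.2 CPM in Hox-/- (log2 fold change -1.61 with SE 0.06 and adjusted p 2.0e-29). Its levels were higher at 120 h in both genotypes, at 159 and 162 CPM in wild type against 64.7 and 66.7 CPM in Hox-/- (log2 fold change -1.18 with SE 0.05 and adjusted p 7.3e-25), so the Hox-/- libraries at 120 h lay below the wild-type libraries at 96 h. Chiron gastruloids held 71.8 and 72.5 CPM at 96 h and 47.1 and 44.6 CPM at 120 h.

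Sfrp5 (ENSMUSG00000018822), on chromosome 19 (42197971 to 42202252, minus strand), encodes a related secreted protein. The 2 groups with the highest levels were wild-type endoderm cultures (15.7, 24.9 and 27.6 CPM) and wild-type Activin A gastruloids at 120 h (43.0 and 45.3 CPM). Hox-/- endoderm cultures held 4.32, 3.88 and 3.78 CPM (log2 fold change -2.51 with SE 0.19 and adjusted p 1.0e-07) and Hox-/- Activin A gastruloids at 120 h held 1.29 and 2.06 CPM (log2 fold change -4.62 with SE 0.17 and adjusted p 3.1e-28). The wild-type gastruloid mean at 120 h was 26.4 times the Hox-/- mean, the widest genotype ratio of any member at that time. At 96 h wild-type libraries held 2.35 and 3.29 CPM, and the Hox-/- libraries held 3 and 4 counts, so the size of that fold (log2 fold change -3.78 with SE 0.38 and adjusted p 1.2e-11) rests on few counts. Wild-type mES cells (0.930 and 1.09 CPM), Hox-/- mES cells (1.34 and 0.756 CPM, log2 fold change 0.08 with SE 0.41 and adjusted p 0.91) and Chiron gastruloids (3 to 14 counts per library) held little Sfrp5.

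Time from 96 h to 120 h was tested within each gastruloid series. In wild-type Activin A gastruloids 8 of the 10 genes fell and 2 rose (Sfrp1 and Sfrp5), where 74.9% of 16831 genes were called, 37.2% higher and 37.8% lower at 120 h. In Hox-/- Activin A gastruloids 6 rose (Axin2, Lef1, Nkd1, Apcdd1, Sfrp1 and Sfrp5) and 4 fell (Sp5, Sp8, Notum and Dkk1), beside 72.4% of genes called, 34.9% higher and 37.6% lower. In wild-type Chiron gastruloids 9 fell and none rose, beside 61.7% of 17305 genes called, 28.5% higher and 33.2% lower, and Sfrp5 was not called (log2 fold change 0.77 with SE 0.53 and adjusted p 0.21). Scaled by total counts alone, 6029 genes were higher and 4732 lower in Chiron gastruloids at 120 h, in place of 4930 and 5739, the median of all genes moved from -0.043 to 0.061, and the same 9 members kept their fall. Depth went with time in all 3 series, and its part in these differences was not tested.

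Among the targets, Axin2 changed by -1.42 on the log2 scale in wild-type Activin A gastruloids, by 0.21 in Hox-/- ones and by -1.12 in Chiron ones. Lef1 changed by -0.59, 1.16 and -1.91 in the same order. Both therefore fell in wild type in each treatment and rose in Hox-/-. Nkd1 (-0.50, 0.50 and -1.24) and Apcdd1 (-0.67, 0.49 and -1.06) had the same pattern of signs. Sp5, in contrast, changed by -3.05, -2.80 and -3.00, and Sp8 by -1.83, -2.23 and -1.29. These are falls in every series, and for Sp5 neither the difference between genotypes (0.25, SE 0.12, adjusted p 0.079) nor that between treatments (-0.07, SE 0.14, adjusted p 0.74) was called. The first of these was called without a filter on low counts (0.33, adjusted p 0.027), without Hox-/- replicate 2 at 96 h (0.30, adjusted p 0.04) and without wild-type replicate 1 at 120 h (0.39, adjusted p 0.031).

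Notum fell in all 3 series (-2.73 in wild-type Activin A, -1.41 in Hox-/- Activin A and -0.64 in Chiron gastruloids). Dkk1 did too, with changes of -0.39, -1.85 and -3.02, the smallest change being in wild-type Activin A gastruloids, where DESeq2 did not call it (-0.41, adjusted p 0.072). Sfrp1 rose in the Activin A series (0.86 in wild type and 1.29 in Hox-/-) and fell in Chiron gastruloids (-0.76). Sfrp5 rose by 3.87 in wild-type and 3.04 in Hox-/- Activin A gastruloids, and those 2 changes did not differ by a call (-0.83, SE 0.71, adjusted p 0.38). The Hox-/- libraries held only 3 and 4 counts of Sfrp5 at 96 h and 15 and 22 at 120 h. The size of the Hox-/- rise and the uncalled difference therefore rest on few counts.

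**Figure D4:**
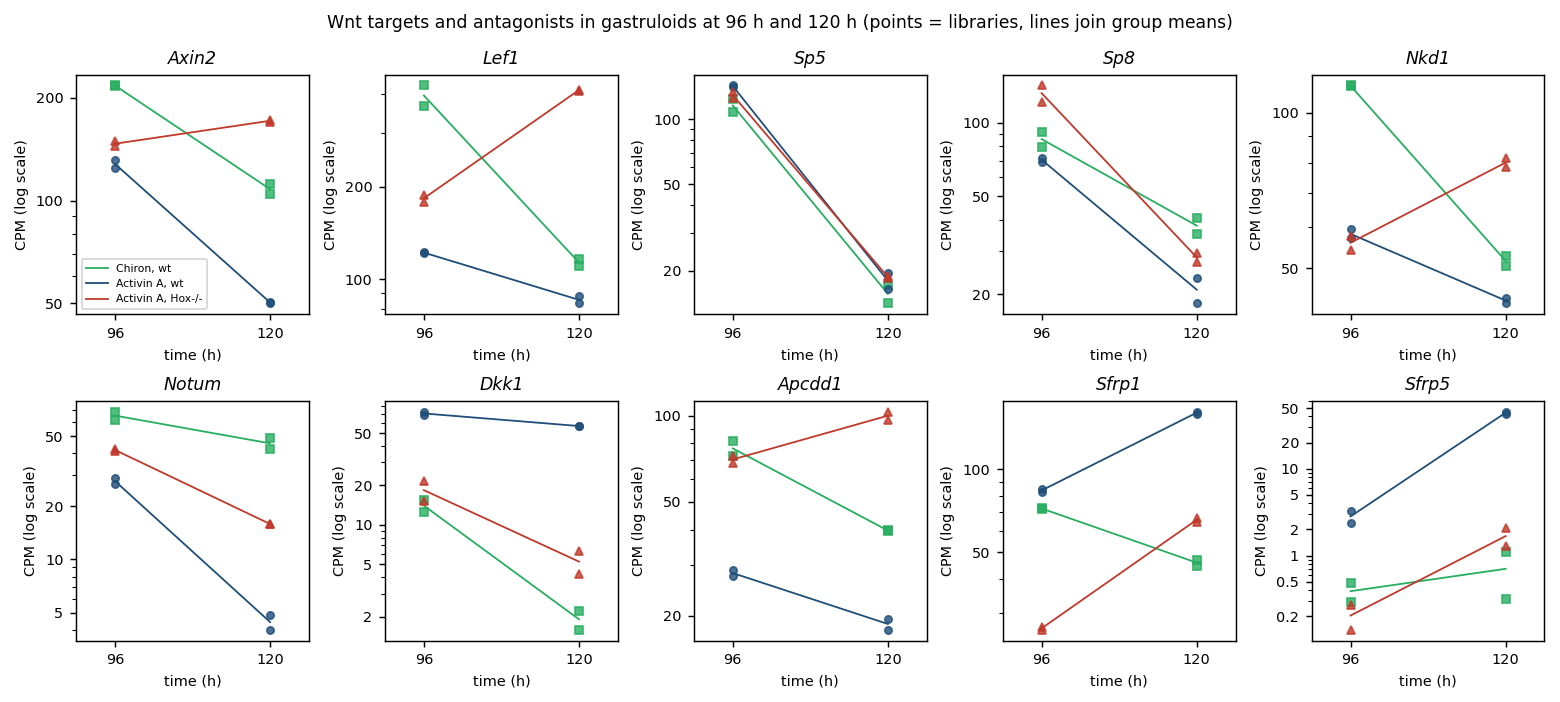
CPM (log scale) of each gene at 96 h and 120 h in Chiron wild-type (green squares), Activin A wild-type (blue circles) and Activin A Hox-/- (red triangles) gastruloids, with points for libraries and lines joining group means. The red line rises where the blue and green lines fall for Axin2, Lef1, Nkd1 and Apcdd1, and the 3 lines fall together for Sp5.

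The difference between the genotypes in their change over time was tested as an interaction. It was called for 8 of the 10 genes, 6 toward Hox-/- (Axin2, Lef1, Nkd1, Notum, Apcdd1 and Sfrp1) and 2 toward wild type (Sp8 and Dkk1), beside 38.9% of all genes called, 18.7% higher and 20.2% lower. Lef1 had the largest value (1.74, SE 0.06, adjusted p 5.2e-28), followed by Axin2 (1.63, SE 0.07, adjusted p 1.0e-24). For Dkk1 it was -1.45 (SE 0.17, adjusted p 1.2e-09), as its fall was smaller in wild type than in Hox-/-.

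The 2 gastruloid treatments were compared in wild type alone, and this comparison shares its 4 Activin A libraries with the genotype comparison above. At 96 h all 10 genes were called, 6 lower in Activin A (Axin2, Lef1, Sp8, Nkd1, Notum and Apcdd1) and 4 higher (Sp5, Dkk1, Sfrp1 and Sfrp5), where 61.6% of 17305 genes were called, 31.3% higher and 30.2% lower. At 120 h the same 6 were lower and Dkk1, Sfrp1 and Sfrp5 were higher, with 41.9% of genes called, 20.3% higher and 21.6% lower, and Sp5 was not called (log2 fold change 0.16 with SE 0.13 and adjusted p 0.33). Scaled by total counts alone, 3954 genes were higher and 2928 lower at 120 h, in place of 3513 and 3736. Sp5 was higher at 96 h by 0.23 (SE 0.06, adjusted p 0.0024).

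Dkk1 differed by 2.25 (SE 0.08, adjusted p 2.3e-17) at 96 h and by 4.86 (SE 0.16, adjusted p 1.9e-17) at 120 h on the log2 scale. In mean CPM, Activin A gastruloids held 5.03 and then 29.6 times as much Dkk1 as Chiron gastruloids. Sfrp5 differed by 2.73 (SE 0.32, adjusted p 9.5e-08) and 5.82 (SE 0.23, adjusted p 1.3e-15), with few counts in the Chiron libraries. Sfrp1 was nearly level at 96 h (0.16, SE 0.05, adjusted p 0.015), a call lost without wild-type Activin A replicate 2 at 96 h (adjusted p 0.055), and higher in Activin A at 120 h (1.75, SE 0.06, adjusted p 1.5e-16).

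Of the genes lower in Activin A, Lef1 had the widest gap at 96 h (-1.76, SE 0.06, adjusted p 8.1e-18), and Notum at 120 h (-3.41, SE 0.14, adjusted p 1.6e-15), where Chiron gastruloids held 10.3 times the Activin A level. Axin2 differed by -0.83 (SE 0.05, adjusted p 5.0e-13) and -1.15 (SE 0.06, adjusted p 6.7e-13), and Apcdd1 by -1.51 (SE 0.07, adjusted p 2.6e-15) and -1.14 (SE 0.10, adjusted p 2.2e-09). Nkd1 moved from -1.02 (SE 0.05, adjusted p 5.9e-14) to -0.30 (SE 0.07, adjusted p 0.0016), and Sp8 from -0.35 (SE 0.07, adjusted p 1.8e-04) to -0.91 (SE 0.11, adjusted p 6.1e-07). The change of the treatment difference over time was called for 9 of 10 genes, all but Sp5, with 39.6% of all genes called, 21.7% higher and 18.0% lower. It was positive for 6 genes, with Sfrp5 (3.09, SE 0.58, adjusted p 1.6e-04), Dkk1 (2.60, SE 0.21, adjusted p 6.5e-10) and Sfrp1 (1.60, SE 0.08, adjusted p 2.1e-13) first, and then Lef1 (1.31, SE 0.09, adjusted p 7.2e-11) and Nkd1 (0.71, SE 0.09, adjusted p 1.0e-06). It was negative for Sp8, for Axin2 (-0.33, SE 0.08, adjusted p 0.0025) and for Notum (-2.11, SE 0.17, adjusted p 6.7e-10). Apcdd1 (0.38, SE 0.12, adjusted p 0.018) lost this call under DESeq2 (0.35, adjusted p 0.091) and without any of 3 libraries (adjusted p 0.069 to 0.12), namely wild-type Activin A replicate 1 at 96 h, wild-type Activin A replicate 1 at 120 h and Chiron replicate 2 at 96 h. Sp8 (-0.56, SE 0.13, adjusted p 0.0016) lost it without wild-type Activin A replicate 2 at 120 h (-0.39, adjusted p 0.05).

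Endoderm cultures were set against mES cells in 1 fit over both tables. All 10 genes were called in each genotype, 8 higher and 2 lower (Notum and Sfrp1) in wild type, and 9 higher and 1 lower (Sfrp1) in Hox-/-. Over all 16251 genes, 79.9% were called in wild type (41.6% higher and 38.3% lower) and 80.6% in Hox-/- (42.7% higher and 37.9% lower). Dkk1 rose by 6.40 (SE 0.15, adjusted p 1.2e-18) in wild type and 7.45 (SE 0.16, adjusted p 3.4e-19) in Hox-/-, the largest and the second largest rise of the members in each. Nkd1 rose by 6.14 (SE 0.17, adjusted p 1.9e-17) and 7.96 (SE 0.16, adjusted p 1.3e-19), and Lef1 by 5.30 (SE 0.13, adjusted p 1.8e-18) and 6.98 (SE 0.13, adjusted p 4.9e-20). Sfrp1 changed by -2.94 (SE 0.06, adjusted p 4.2e-19) and -4.33 (SE 0.07, adjusted p 3.9e-21). Sp5 rose by 1.72 (SE 0.15, adjusted p 1.4e-09) and 3.53 (SE 0.19, adjusted p 1.0e-12), and Sp8 by 3.27 (SE 0.29, adjusted p 2.1e-09) and 3.89 (SE 0.26, adjusted p 2.3e-11). Smaller rises were those of Axin2, at 0.98 (SE 0.06, adjusted p 1.3e-11) and 2.64 (SE 0.07, adjusted p 3.9e-18), and Apcdd1, at 0.89 (SE 0.09, adjusted p 1.4e-08) and 1.63 (SE 0.08, adjusted p 9.9e-14). Sfrp5 rose by 4.38 (SE 0.28, adjusted p 1.1e-11) in wild type and 1.82 (SE 0.37, adjusted p 1.6e-04) in Hox-/-. Notum is the member whose direction differed between genotypes, as it fell in wild type (-1.02, SE 0.08, adjusted p 1.8e-10) and rose in Hox-/- (0.55, SE 0.07, adjusted p 1.1e-06).

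Whether differentiation changed the genotype effect was tested in the same fit, and 8 of 10 genes were called, 6 toward Hox-/- and 2 (Sfrp1 and Sfrp5) toward wild type, with 24.1% of all genes called, 11.6% higher and 12.5% lower. Sp5 had a large value (1.81, SE 0.27, adjusted p 5.7e-05) since it was lower in Hox-/- mES cells and not called in endoderm cultures. For Nkd1 (1.82, SE 0.48, adjusted p 0.0086) the call was lost without wild-type mES replicate 1 (1.33, adjusted p 0.19) or Hox-/- mES replicate 1 (1.59, adjusted p 0.056). Sfrp5 (-2.57, SE 0.60, adjusted p 0.0036) lost it without Hox-/- mES replicate 1 (-2.09, adjusted p 0.12), and both genes had few counts in mES cells. The genes not called were Sp8 (0.63, SE 0.52, adjusted p 0.43) and Dkk1 (1.05, SE 0.46, adjusted p 0.11), which also had few counts there. Lef1 differed by 1.68 (SE 0.31, adjusted p 5.7e-04) and Sfrp1 by -1.38 (SE 0.10, adjusted p 4.8e-09).

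Markers of the cell types that these mixed cultures can hold moved with the same groups, and their part in the results was not tested. The 14 endoderm markers summed to 1273 to 1283 CPM in wild-type endoderm cultures and 612 to 664 CPM in Hox-/- ones, where 14 of 14 were lower. In Activin A gastruloids they summed to 1437 to 1665 CPM in wild type against 371 to 379 CPM in Hox-/- at 96 h (13 of 14 lower), and to 1971 to 2027 and 245 to 254 CPM at 120 h (12 of 14 lower). Chiron gastruloids held 337 to 349 CPM at 96 h and 199 to 201 CPM at 120 h. Sfrp5 and Dkk1 were thus low in the gastruloid groups in which this sum was low, but Sfrp5 was also low in wild-type Activin A gastruloids at 96 h, and Dkk1 was higher in the Hox-/- endoderm cultures. None of the 14 was at 0 in a whole group, but 4 in wild-type and 5 in Hox-/- mES cells had at most 3 counts in every library. In mES cells the sum was 305 to 316 CPM in wild type against 139.8 to 145 CPM in Hox-/- (3 of 8 tested lower and none higher), and the endothelial and blood markers summed to 128 to 129 and 186 to 192 CPM (1 of 5 higher and none lower).

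The 14 markers of presomitic and somitic mesoderm summed to 391 to 405 CPM in wild-type and 422 to 439 CPM in Hox-/- Activin A gastruloids at 96 h, with 3 higher and 4 lower. At 120 h they summed to 781 to 787 and 1959 to 1973 CPM, with 12 of 14 higher in Hox-/- and none lower. In Chiron gastruloids the sum was 2238 to 2642 CPM at 96 h and 1300.3 to 1334 CPM at 120 h. The 2 gastruloid groups with the highest sums are the 2 with the highest Lef1. Below them the orders differ. Chiron gastruloids at 120 h, with the next sum, held 113 CPM of Lef1. Wild-type and Hox-/- Activin A gastruloids at 96 h, with lower sums, held 122 and 183 CPM. In endoderm cultures, where Lef1, Axin2 and Nkd1 were higher in Hox-/-, this sum was 127 to 151 CPM in wild type against 88.1 to 93.5 CPM in Hox-/-, with 2 of 9 tested markers higher and 6 lower. Markers of presomitic and somitic mesoderm that were at 0 in a whole group were found in mES cells alone. In endoderm cultures 2 markers in each genotype had at most 3 counts in every library. The same held for 2 in wild-type and 3 in Hox-/- Activin A gastruloids at 96 h.

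**Figure D5:**
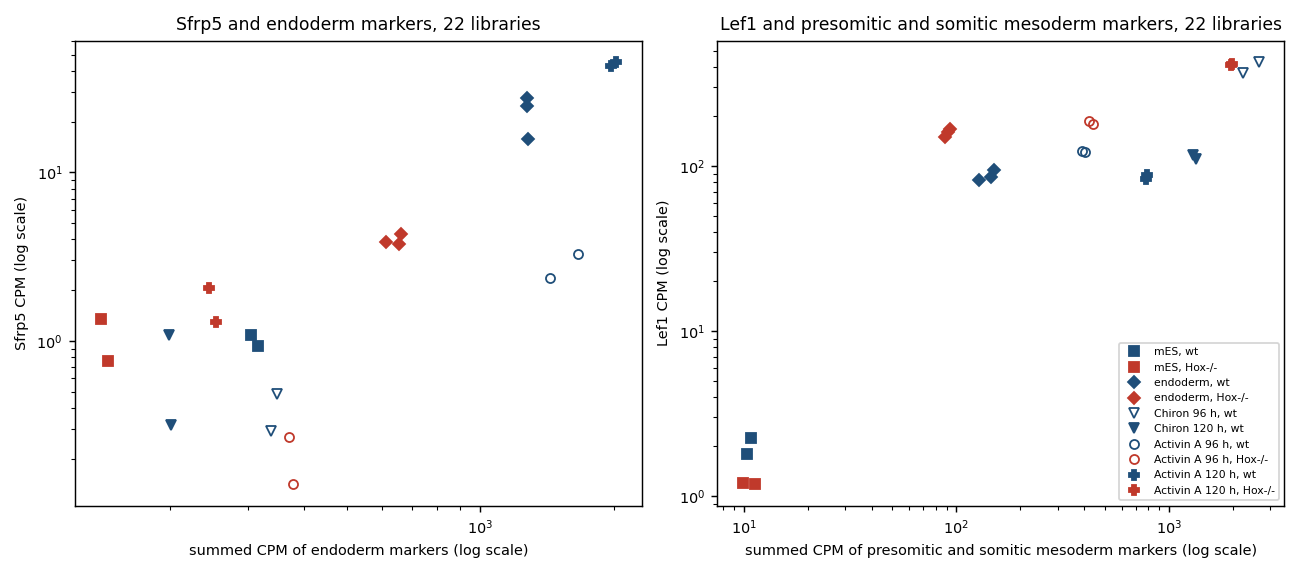
Left, Sfrp5 CPM against the summed CPM of the 14 endoderm markers, and right, Lef1 CPM against the summed CPM of the 14 presomitic and somitic mesoderm markers, in each of the 22 libraries, with all axes on a log scale, wild type in blue and Hox-/- in red. The group with the highest Sfrp5, at 44.2 ± 1.64 CPM (mean ± SD, n = 2), has endoderm sums of 1971 to 2027 CPM. The 2 groups with the highest Lef1, at 413 ± 2.10 and 396 ± 44.0 CPM, have the highest mesoderm sums. Chiron gastruloids at 120 h have the next mesoderm sums but less Lef1 than Activin A gastruloids of either genotype at 96 h.

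The 10 markers of caudal progenitors, among them T, Cdx2 and Wnt3a, summed to 525 to 592 CPM in wild-type and 774 to 845 CPM in Hox-/- endoderm cultures (8 higher and 2 lower). Activin A gastruloids held 3175 to 3324 and 4469.7 to 4564 CPM at 96 h (8 higher and 1 lower) and 693 to 695 and 748 to 751 CPM at 120 h (7 higher and 2 lower). Chiron gastruloids held 2099.5 to 2422 CPM at 96 h and 757 to 831 CPM at 120 h. Sp5 and Sp8 were highest in the 3 groups at 96 h, which also had the 3 highest caudal sums. The 10 pluripotency markers summed to 909 to 1055 CPM in wild-type and 286 to 304 CPM in Hox-/- endoderm cultures, and all 10 were lower. In Activin A gastruloids they summed to 1095 to 1126 and 969 to 987 CPM at 96 h (2 higher and 7 lower) and to 133 to 134 and 49.4 to 49.9 CPM at 120 h (2 higher and 6 lower). Neural markers summed to 19.3 to 22.9 CPM in wild-type and 47.5 to 57.1 CPM in Hox-/- endoderm cultures (2 of 4 tested higher and 1 lower). In Activin A gastruloids at 120 h, 1 of 9 neural markers was higher and 7 lower in Hox-/-, 3 of 9 cardiac markers were higher and 5 lower, and 5 of 8 endothelial and blood markers were higher and none lower.

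Other genes of the pathway were counted from lists by role, and are read beside the shares of all genes given above. Each value is a log2 fold change. Where levels follow in parentheses, they are the mean CPM ± SD of Hox-/- and of wild type (n = 3 each in endoderm and n = 2 each elsewhere). Of 14 further Wnt targets, 2 were higher and 4 lower among 10 tested in Hox-/- mES cells, 8 and 6 in endoderm, 7 and 4 in Activin A gastruloids at 96 h, and 7 and 4 at 120 h. Their median log2 fold changes were -0.11, 0.33, 0.11 and 0.42 in that order, beside 0.00, 0.00, 0.03 and -0.02 over all genes. Cdx4, a caudal homeobox gene, rose by 2.39 in Hox-/- endoderm (29.2 ± 2.63 against 5.58 ± 1.12 CPM) and by 2.10 at 96 h. Lgr5, the R-spondin receptor gene of stem cells, changed by -2.11 in endoderm and -3.88 at 96 h (0.384 ± 0.213 against 5.51 ± 1.58 CPM). The Hox-/- libraries at 96 h held at most 8 counts of Lgr5, so the size of that change rests on few counts. At 120 h the largest changes among genes with a group mean of at least 5 CPM were Cdx1 at 3.66 (142 ± 6.12 against 12.1 ± 1.87 CPM) and the mesoderm factor Tbx6 at 2.65, both higher in Hox-/-. Several genes of this list, T, Cdx1, Cdx2, Cdx4, Tbx6 and Msgn1, are also cell type markers above. In Hox-/- mES cells the growth regulator Myc was lower (-1.13) and Bambi was higher (0.47).

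Among other antagonists, 1 was higher and 2 lower of 9 tested in mES cells, 5 and 8 of 15 in endoderm, 2 and 6 of 16 at 96 h, and 2 and 10 of 16 at 120 h, with medians of 0.20, -0.31, -0.60 and -0.59. Cer1, a secreted antagonist of the anterior endoderm that is also one of the endoderm markers, was lower in Hox-/-, with values of -6.83 at 96 h (1.22 ± 0.122 against 147 ± 14.5 CPM) and -2.21 at 120 h. Nkd2, the paralog of Nkd1, was higher by 3.21 at 120 h (199.8 ± 9.94 against 23.3 ± 1.18 CPM). Frzb, a further Frizzled-related gene, changed by -3.66 in endoderm (0.930 ± 0.360 against 11.9 ± 0.246 CPM), as was Shisa3 by -2.49. Sfrp2, the paralog of Sfrp1 and Sfrp5, was higher by 1.37 in Hox-/- mES cells.

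Wnt ligands numbered 0 higher and 3 lower of 4 tested in mES cells, 8 and 5 of 16 in endoderm, 8 and 4 of 19 at 96 h, and 12 and 4 of 19 at 120 h, with medians of -1.01, 0.32, 0.23 and 1.19. By the same minimum level, the largest change in endoderm was Wnt7a at 3.71 (7.95 ± 1.66 against 0.601 ± 0.0989 CPM), and at 120 h it was Wnt6 at 2.89 (5.33 ± 1.19 against 0.766 ± 0.625 CPM). Receptors and R-spondins were counted as 2 higher and 2 lower of 14 in mES cells, 8 and 5 of 20 in endoderm, 4 and 8 at 96 h, and 8 and 9 at 120 h, with medians of 0.05, 0.00, -0.08 and -0.19. Fzd5, a Frizzled receptor, was lower in Hox-/-, with values of -1.40 in endoderm, -1.56 at 96 h and -4.42 at 120 h (5.53 ± 0.509 against 128 ± 5.22 CPM). Of the 13 genes of the destruction complex and beta-catenin, 4 were higher and none lower in mES cells, 4 and 1 in endoderm, 4 and 2 at 96 h, and 7 and 2 at 120 h, with medians of 0.06, 0.02, 0.05 and 0.12. Csnk1a1, the kinase that primes beta-catenin, was higher in all 4 settings (0.57, 0.72, 0.74 and 0.66). Of 10 TCF and LEF partners, 4 were higher and none lower in mES cells, 5 and 2 in endoderm, 2 and 4 at 96 h, and 4 and 4 at 120 h, with medians of 0.11, 0.19, -0.05 and 0.04. The co-repressor gene Tle2 changed by -2.93 at 120 h.

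Between treatments, where the first mean is that of Activin A, 3 of the 14 further targets were higher and 10 lower in Activin A than in Chiron gastruloids at 96 h, and 5 and 8 at 120 h (medians -0.72 and -0.25, beside -0.00 and -0.01 over all genes). Cdx4 changed by -5.92 and -4.59. Of 17 other antagonists tested, 3 were higher and 9 lower at 96 h, and 10 and 4 at 120 h (medians -0.46 and 0.78), and Cer1 was among the higher ones at 120 h (2.25). Of 19 ligands 5 were higher and 9 lower at 96 h, and 9 and 5 at 120 h (medians -0.60 and 1.22), with Wnt3 higher by 4.83 at 96 h (40.4 ± 0.00859 against 1.32 ± 0.347 CPM). Of 20 receptors and R-spondins 8 were higher and 11 lower at 96 h, and 9 and 7 at 120 h (medians -0.36 and 0.17), and Fzd5 was higher in Activin A gastruloids by 3.42 and 4.81. The destruction complex list gave 2 higher and 7 lower, then 1 and 5 (medians -0.14 and -0.12), and the TCF and LEF partners gave 3 and 5, then 4 and 2 (medians -0.15 and 0.09).

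How the members varied together was described over the 10 group means of log2(CPM + 0.5), which share libraries and depth between genes. Of the 45 pairs, Lef1 and Nkd1 had the highest Pearson r (0.95, Spearman rho 0.73), and Axin2 and Nkd1 had an r of 0.81 and a rho of 0.93. Lef1 (2.02 and 1.19 CPM) and Nkd1 (1.05 and 0.878 CPM) were far lower in wild-type and Hox-/- mES cells than in any other group. How much of these r values that split carries was not tested. Nkd1 peaked in Hox-/- endoderm (232 CPM) and Lef1 in Hox-/- Activin A gastruloids at 120 h (413 CPM). Axin2 and Sfrp1 varied in opposite directions (r -0.80, rho -0.76). Among all 13272 genes with at least 5 CPM in a group, the closest to Axin2 was Map3k20 (r 0.93), to Lef1 Plxdc2 (0.99), to Sp5 Gpld1 (0.98), to Sp8 Khdrbs1 (0.99) and to Nkd1 Tpm4 (0.99). The closest to Sfrp5 were Clu (0.99) and Apoa1 (0.95), both known as genes of secreted lipid-associated proteins, and the closest to Dkk1 was the coagulation factor gene F5 (0.98). Notum (Kifbp, 0.935), Sfrp1 (Nudt17, 0.94) and Apcdd1 (Zfp91, 0.90) had the least close partners apart from Axin2.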

How the data were processed

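Per the labels' protocols, stranded poly(A) libraries were sequenced from 22 samples. The submitters' processing notes name cutadapt 1.16, STAR, Cufflinks 2.2.1 and mm10, without their roles; whether counting used strand is not given in the sources used here. The authors deposited raw counts per gene, which were tested, and FPKM, which were used for levels between genes only. Gene models matched GENCODE M21.

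Counts were tested with edgeR 4.0.16 in R 4.3.3 (filterByExpr, TMM, 1 coefficient per group, quasi-likelihood test, Benjamini-Hochberg adjustment over all genes tested) in each table separately, and in 1 joint fit for endoderm cultures against mES cells. Standard errors are the size of the log2 fold change divided by the square root of F. Scripts were tested on simulated data. The 4 wild-type Activin A libraries are identical in both gastruloid tables. Sums and CPM use each library's total count (9108085 to 28819301). Motif matches were searched in RefSeq windows (GRCm38.p6). Alternatives were RLE size factors, total counts alone, no filter, DESeq2 1.42.0, a replicate block and each library left out.

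The members, lists and alternatives were chosen with earlier results of these data known. Every member is named in every comparison. Of each pathway list the text names at most the 2 called genes with the largest log2 fold change per genotype or treatment comparison, among those with a group mean of at least 5 CPM, and, of the genes with the closest profile over the 10 group means, at most 2 per member.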

Additional observations from a re-analysis of the deposited data

Results flagged for a closer look

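All the values here are differences between 2 effects on the log2 scale, each called by edgeR's quasi-likelihood test of the interaction after Benjamini-Hochberg adjustment, and no explanation is offered for them. The effect of Hox-/- in Activin A gastruloids differed between 120 h and 96 h for 8 of the 10 genes, beside 38.9% of all genes. It was more positive at 120 h for Axin2 (1.63), Lef1 (1.74), Nkd1 (1.00), Notum (1.32), Apcdd1 (1.16) and Sfrp1 (0.43). It was more negative for Dkk1 (-1.45) and Sp8 (-0.40), and the call of Sp8 was lost when single libraries were left out, as given above.

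In wild-type gastruloids, the difference between Activin A and Chiron changed from 96 h to 120 h for 9 genes, beside 39.6% of all genes. It moved toward Activin A for Sfrp5 (3.09), Dkk1 (2.60), Sfrp1 (1.60), Lef1 (1.31), Nkd1 (0.71) and Apcdd1 (0.38), and toward Chiron for Notum (-2.11), Sp8 (-0.56) and Axin2 (-0.33). The calls of Apcdd1 and Sp8 were lost under some of the alternatives, as given above. All of these changes share the 4 wild-type Activin A libraries with those of the genotype comparison.

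Between mES cells and endoderm cultures the effect of Hox-/- differed for 8 genes, beside 24.1% of all genes. It was more positive in endoderm cultures for Nkd1 (1.82), Sp5 (1.81), Lef1 (1.68), Axin2 (1.66), Notum (1.57) and Apcdd1 (0.74), and more negative for Sfrp5 (-2.57) and Sfrp1 (-1.38). Nkd1 and Sfrp5 had few counts in mES cells, and their calls were lost when single libraries were left out, as given above.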

How the results depend on the processing

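Of 1811 log2 fold changes of the members recomputed under the alternatives, 1774 kept their direction and their side of the threshold. The number of members called moved by less than 1.5 times in all 14 comparisons. With 1 library left out at a time it was 4 in mES cells, 9 in endoderm cultures, 8 to 9 at 96 h and 9 at 120 h between genotypes, 9 to 10 and 9 between treatments, 10, 10 and 9 for time in wild-type Activin A, Hox-/- Activin A and Chiron gastruloids, 10 and 10 for endoderm against mES cells, and 7 to 9, 8 to 9 and 6 to 8 for genotype by time, treatment by time and genotype by culture. The calls lost or gained are given beside the results above. Every reversed value belonged to a difference that was not called, and the cause was not tested. Nkd1 between genotypes at 96 h was -0.051 with total counts alone, -0.046 with no filter and -0.003254 with the replicate block, and -0.051 to 0.043 with a library left out. Such ranges crossed 0 also for Sp8 (-0.38 to 1.45), Nkd1 (-0.61 to 0.16) and Sfrp5 (-0.41 to 0.42) in mES cells, Sp5 in endoderm cultures (-0.22 to 0.034), Sfrp5 over time in Chiron gastruloids (-0.46 to 1.31), Sp5 for treatment by time (-0.20 to 0.062) and Sp8 for genotype by culture (-0.65 to 1.21).

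The replicate numbers in the labels were not used to pair the samples, and whether they mark pairs is not settled here. Deviations of same-numbered libraries from their group means had correlations of -0.154 to 0.189 over 14062 genes. A replicate block left the number of members called as it was in all 14 comparisons. Over all genes, the block raised the number called in mES cells from 3168 to 3793. Over all genes, total counts alone moved the median log2 fold change from -0.020 to -0.132 between genotypes at 120 h and from 0.067 to 0.185 for wild-type endoderm against mES cells. Without a filter 2751 genes were higher and 3521 lower at 96 h, and 3789 and 2626, in place of 3141 and 3403, for genotype by time. DESeq2 called 1098 genes in mES cells in place of 3168, and 3647 at 96 h in place of 6546, and edgeR called 1477 and 1690 in mES cells without wild-type replicates 1 and 2. Depth limits Sfrp5 in mES cells, Chiron gastruloids and Hox-/- Activin A gastruloids, where its libraries held 3 to 22 counts, and Lef1, Sp8, Nkd1 and Dkk1 in mES cells.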
